A study of Mus musculus with 32 samples.

Results

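The genes described here are 137 of the 1606 genes in the cartilage expression table, chosen because their level was low in the MMS D28 group and not, or much less, below Control at MMS D3, MMS D7 and MMS D14. For each gene, L is the log2 of a group's mean plus 1, minus the log2 of the Control mean plus 1. A member has L at or below -0.5 at MMS D28, and its L at each of the 3 earlier MMS groups, divided by its L at MMS D28, is at most 0.35. In all, 780 genes of the table met the first condition, and the other 643 were already low, in part, in at least one earlier group. The rule used the samples of Control and of the 4 MMS groups, so the pattern over those groups is a description and carries no test.

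Messenger RNA of cartilage and synovium was sequenced in C57BL/6 mice, in a model that the labels call MMS and in Control mice. Cartilage had 2 samples in each of 7 groups, which are MMS D3, MMS D7, MMS D14, MMS D28, R2, R1 and Control. Synovium had 3 samples in each of the same groups except MMS D28. The names MMS, R1 and R2 are used as they stand, since nothing in the labels explains them, and the labels give no unit for the number after D and no genotype, age or agent. They do not say that replicates came from separate animals, so every p-value below measures only the spread between samples, which may be technical. The values in cartilage are a normalised signal of unstated unit, and in synovium they are FPKM (fragments scaled to transcript length and to the reads of the sample). Depth is unknown, so no counting interval can be given, and with 2 cartilage samples in a group the number of samples limits the precision. The table holds selected genes: 1590 of 1606 (99.0%) differed at least 1.5-fold between the means of MMS D28 and Control. In these bulk samples, fewer cells of a type and less RNA per cell cannot be told apart.

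Cartilage is a tissue in which a small number of chondrocytes maintain a large matrix. Fibrillar collagen is modified before it leaves the cell: prolines and lysines are hydroxylated in the endoplasmic reticulum, chaperones help the chains fold into a triple helix, and lysyl oxidases cross-link the fibrils outside the cell. At the border with bone, the matrix mineralises under the control of phosphate, pyrophosphate and a family of acidic phosphoproteins. Some of the 137 genes belong to these processes or to cell signalling.

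The label of the group as lowered at MMS D28 alone holds among the MMS groups, where the rule set it, but not over all 7 groups. The median L of the 137 genes was 0.05 at MMS D3, -0.00 at MMS D7, -0.03 at MMS D14 and -0.64 at MMS D28. In samples that the rule did not use, it was -0.16 in R2 and -0.43 in R1. All 137 members lay below Control in the mean of R1 and 115 did in the mean of R2. Over all 1606 genes the median L was -0.49 at MMS D28, 0.02 in R2 and -0.18 in R1, and over the other 643 lowered genes it was -0.76, -0.18 and -0.49. MMS D28 was the lowest of the 7 group means for 127 of the members (37.5% of all genes), and R1 was the second lowest for 115 (20.2% of all genes), ranks that the rule's limit on earlier falls fixes in large part. R1 and R2 are set against the same Control samples that the rule used, so their distance from Control is not independent of the choice of members.

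The 2 MMS D28 samples were unequal. Relative to the Control mean, the median member stood at -0.85 in replicate 1 and at -0.49 in replicate 2, and replicate 1 was the lower for 130 of the 137 members, against 882 of all 1606 genes (54.9%). Every member lay below the Control mean in both samples, between -1.66 and -0.42 in replicate 1 and between -1.32 and -0.22 in replicate 2. On its own, replicate 1 was at or below -0.5 for 133 members and replicate 2 for 67. With replicate 1 left out, the rule found 51 genes, and 50 of them were among the 137. The number of members therefore rests on replicate 1. The direction was the same in both samples, but the rule chose the members on the mean of these 2 samples, which fixes this in large part.

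The ordering of samples can be counted gene by gene. Both MMS D28 samples lay below all 8 samples of Control and the 3 earlier MMS groups for 129 of the 137 members, where 23.5% of all genes did so, but the rule chose the members for this. Both also lay below all 12 other samples for 70 members, against 15.5% of all genes. The 2 R2 samples lay above both MMS D28 samples for 115 members (47.6% of all genes), and the 2 R1 samples did so for 77 (36.8% of all genes). Among the other 643 lowered genes the shares were 87.1% for R2 and 68.9% for R1. R2 and R1 are set here against MMS D28 samples that chose the members, so these counts are a description too.

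**Figure D1:**
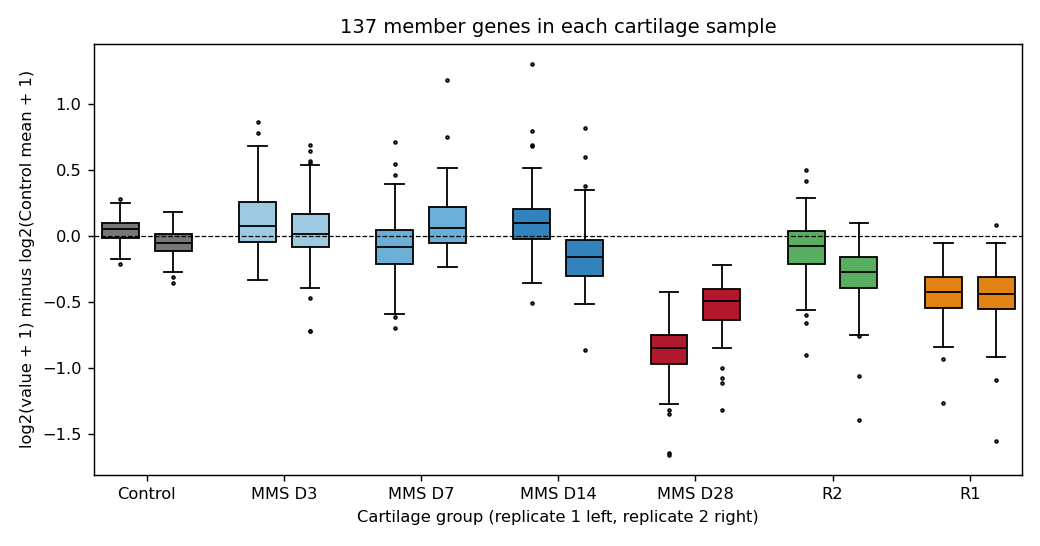
Each box shows the 137 members in 1 cartilage sample, as log2 of the value plus 1 minus log2 of the Control mean plus 1 (box, quartiles; line, median; whiskers, up to 1.5 times the box length; dots, single genes beyond). The MMS D28 medians are -0.85 and -0.49, the R1 medians -0.42 and -0.44, and the R2 medians -0.08 and -0.27.

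The samples also differed in the markers of other cell types. Of 37 neutrophil markers, 34 were listed in cartilage and none was a member. Their summed signal was 35456 and 36004 in Control, 31168 and 35181 at MMS D3, 35446 and 26616 at MMS D7, 43147 and 53408 at MMS D14, and 75572 and 56727 at MMS D28. The same sum was 36490 and 46124 in R2 and 66604 and 64543 in R1. The groups in which the members were low, MMS D28 and R1, thus had the highest neutrophil sums, and replicate 1 of MMS D28, where members were lowest, had the highest of all 14 samples. The defining neutrophil markers S100a8, Ngp, Elane and Mpo were all listed, with S100a8 at 14435 and 10998 at MMS D28, against 6880 and 6926 in Control. The part of these markers in the members' levels was not tested.

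Chondrocyte genes were also low at MMS D28. The table listed 27 of 42 chondrocyte genes, of which only Col11a1 and Barx1 were members. All 27 had L at or below -0.5 at MMS D28, against 48.6% of all genes. Their summed signal was 28504 and 21680 in Control, 32951 and 33480 at MMS D3, 13813 and 20804 at MMS D7, 7749 and 6384 at MMS D14, and 9144 and 10183 at MMS D28. R2 had 15352 and 20198 and R1 had 16373 and 17229. Chad, a cartilage matrix protein with the highest values of the list, averaged 2153 at MMS D14, 3524 at MMS D28 and 8691 in Control, and weighs heavily in the sum. Gene by gene, the median L of the 27 was -0.88 at MMS D14, -0.92 at MMS D28, -0.28 in R2 and -0.48 in R1, so it was lower at MMS D28 and in R1 than in R2, as the member median was. Of the defining markers of the tissue, Acan (aggrecan) averaged 122 at MMS D14, 115 at MMS D28, 153 in R2 and 127 in R1, against 203 in Control. Col2a1 (type II collagen) averaged 468, 354, 1025 and 546 in the same 4 groups, against 772 in Control. Col9a1 and Matn3 were not in the table used here. B cell genes, 25 of 41 listed and none a member, summed to 356 and 506 at MMS D28, 1628 and 1693 in R2, and 714 and 662 in R1, against 1267 and 1351 in Control. Macrophage and monocyte genes, 6 of 28 listed, summed to 1238 and 973 at MMS D28, 624 and 732 in R2, and 1109 and 1014 in R1, against 578 and 659 in Control. They did not move together: at MMS D28, 4 of the 6 had L at or above 0.5 and 2 had L at or below -0.5. The defining macrophage markers Adgre1 and C1qa were not listed. The part of these lists in the members' levels was not tested.

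**Figure D2:**
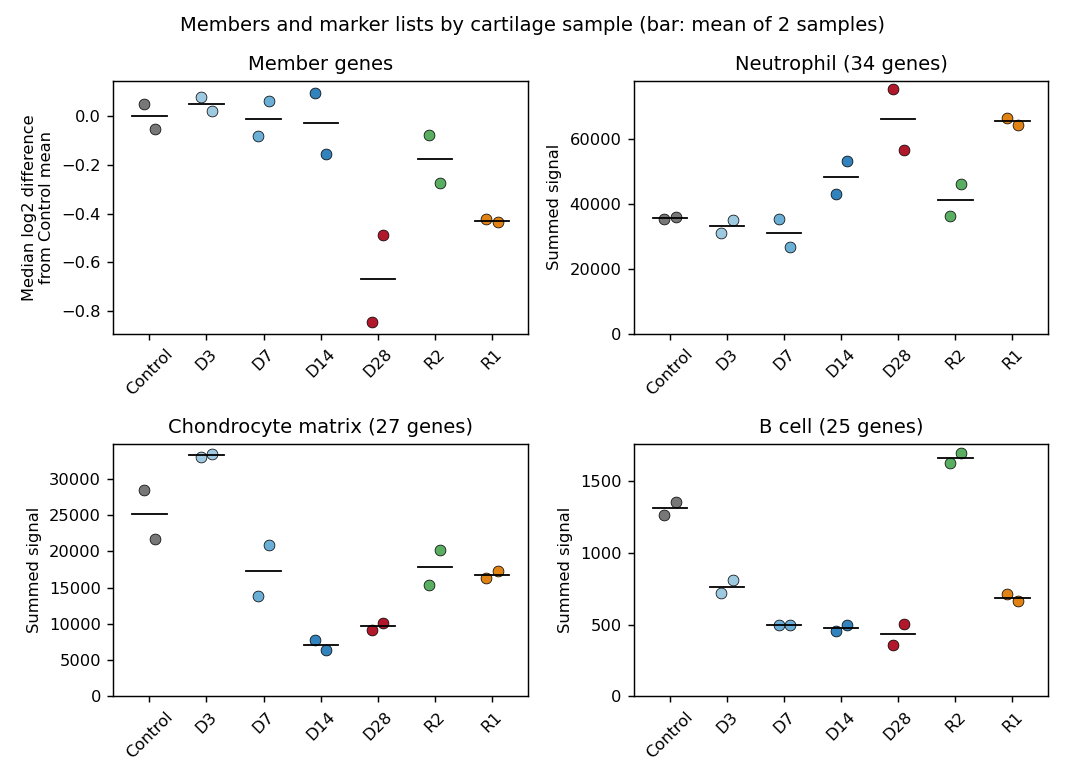
Points are single cartilage samples and bars are group means (n = 2); the first panel gives the median log2 difference of the 137 members from the Control mean, and the other panels the summed signal of a marker list. The neutrophil sum is highest at MMS D28 and in R1, the chondrocyte sum, in which Chad weighs heavily, is lowest at MMS D14, and the member median is lowest at MMS D28.

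Enzymes that modify collagen and their partners made up 8 of the 137 members. A list of these enzymes and their partners, drawn up after the values were seen, had 13 genes in the table. All 13 had L at or below -0.5 at MMS D28, against 48.6% of all genes, and 8 of the 13 were members: P4ha1, P4ha2, Plod2, P3h3, P3h4, Loxl4, Fkbp9 and Kdelr3. Their L ranged from -1.34 to -0.59 at MMS D28, from -0.47 to 0.01 in R2 and from -0.85 to -0.25 in R1. The other 5, P3h2, Loxl2, Serpinh1, Colgalt2 and Pcolce2, missed the rule at an earlier group. Serpinh1, the collagen chaperone Hsp47, had L of -1.38 at MMS D3, 0.60 at MMS D14 and -0.93 at MMS D28.

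P4ha1 and P4ha2 encode catalytic subunits of prolyl 4-hydroxylase, which makes the hydroxyproline that stabilises the collagen triple helix. P4ha2 had a signal of 52.6 and 40.9 in Control, 66.3 and 52.0 at MMS D3, 30.7 and 42.3 at MMS D7, 44.7 and 32.9 at MMS D14, and 18.7 and 21.1 at MMS D28. R2 samples had 40.1 and 44.7 and R1 samples 27.8 and 33.0. Both MMS D28 samples lay below all the others, and the R2 samples overlapped Control while the R1 samples did not. P4ha1 had 47.2 and 35.3 in Control, 49.3 and 45.2 at MMS D3, 34.3 and 42.1 at MMS D7, 43.4 and 35.7 at MMS D14, and 20.2 and 23.1 at MMS D28. Its R2 samples had 41.7 and 38.8 and its R1 samples 31.1 and 35.3. Here too the MMS D28 samples stood alone at the bottom, and both R2 and R1 overlapped Control.

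Both genes are textbook targets of the hypoxia-inducible factors, which bind DNA at a core of ACGTG or GCGTG, so their promoters are shown with those letters in capitals, on either strand. The sequences are the 250 bases before a RefSeq start of each gene on GRCm38.p6, both on the plus strand. They lie at chr10:59323046-59323295 for P4ha1 and chr11:54100674-54100923 for P4ha2. GENCODE vM21 places P4ha2 at chr11:54100095-54131665, so the stretch shown for it lies within the gene as annotated there.
P4ha1: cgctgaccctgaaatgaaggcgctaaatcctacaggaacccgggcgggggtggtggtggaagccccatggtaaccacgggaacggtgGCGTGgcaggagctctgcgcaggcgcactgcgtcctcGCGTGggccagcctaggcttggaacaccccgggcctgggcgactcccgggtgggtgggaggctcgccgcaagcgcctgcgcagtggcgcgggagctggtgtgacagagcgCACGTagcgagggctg
P4ha2: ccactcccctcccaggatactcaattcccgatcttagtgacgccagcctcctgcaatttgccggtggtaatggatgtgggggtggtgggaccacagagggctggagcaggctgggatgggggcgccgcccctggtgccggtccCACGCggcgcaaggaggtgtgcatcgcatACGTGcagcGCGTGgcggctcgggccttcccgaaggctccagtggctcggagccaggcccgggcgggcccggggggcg

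Each promoter held 3 matches, beginning 163, 126 and 16 bases before the RefSeq start in P4ha1 and 107, 78 and 69 bases before it in P4ha2. Over the members, 63 of 147 promoters of 114 matched genes (42.9%) held the motif, against 45.5% of the promoters of all genes of the cartilage table and 38.6% of all mouse promoters in the reference. The share among members was thus no higher than in the table. A match is a description of the letters and not a binding site.

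Plod2, the lysyl hydroxylase that acts on the ends of collagen chains, had 64.8 and 51.6 in Control, 73.0 and 57.7 at MMS D3, 54.8 and 69.8 at MMS D7, 62.7 and 47.4 at MMS D14, and 24.95 and 37.2 at MMS D28. R2 samples had 62.9 and 52.7 and R1 samples 39.6 and 43.3. The MMS D28 samples were below all 12 others, and the R1 samples were next. P3h4, a partner of the prolyl 3-hydroxylase P3h3 in a complex with lysyl hydroxylase, showed a like order, with 13.3 and 19.4 at MMS D28, 34.2 and 26.6 in R2 and 21.7 and 22.9 in R1, against 35.3 and 29.0 in Control. Loxl4, a lysyl oxidase that cross-links collagen, had the second lowest L of the 137, at -1.34. Its signal was 2.75 and 4.55 at MMS D28, 8.52 and 6.45 in R2 and 5.54 and 5.45 in R1, against 11.4 and 10.1 in Control. None of the 8 samples in Control and the 3 earlier MMS groups was as low as either MMS D28 sample.

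Matrix proteins themselves were few. Col11a1, a chain of the type XI collagen found in cartilage fibrils, had 54.2 and 45.1 in Control, 44.9 and 43.3 at MMS D3, 35.9 and 45.7 at MMS D7, 56.6 and 51.3 at MMS D14, and 19.9 and 31.7 at MMS D28. R2 samples had 70.6 and 45.4 and R1 samples 41.9 and 33.4. The R2 samples spanned a wide range and overlapped Control. Col6a2, a chain of the type VI collagen around chondrocytes, differed from most members by being high at MMS D14, with 442 and 270 there and 90.2 and 146 at MMS D28, against 192 and 163 in Control. Its L at MMS D14 was the highest of any member there, and the rule admits such genes because it limits only falls at the earlier groups.

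Genes that handle mineral and phosphate were another group. The table held 11 such genes, a list again drawn up after the values were seen. All 11 had L at or below -0.5 at MMS D28, against 48.6% of all genes. Members were 5 of them: Mepe, Ibsp, Enpp1, Ank and Phex. They differed from the collagen enzymes in R2. Their L in R2 ranged from -1.13 to -0.32, with a median of -0.50, against a median of -0.06 for the 8 collagen genes. In R1 the 2 medians were -0.62 and -0.47. The contrast between the lists was not tested, since both were chosen on these samples. From the list of hypertrophic cartilage genes, 9 were in the table and 3 were members, namely Ibsp, Enpp1 and Ank.

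Mepe, a secreted phosphoprotein made by osteocytes whose fragments inhibit mineralisation, had the lowest L of all members, at -1.48. Its signal was 107 and 125 in Control, 92.2 and 70.1 at MMS D3, 112 and 119 at MMS D7, 81.4 and 88.9 at MMS D14, and 36.0 and 46.0 at MMS D28. R2 samples had 61.7 and 43.6 and R1 samples 47.6 and 38.8. The MMS D28, R2 and R1 samples overlapped each other and all 6 lay below every other sample. Ibsp, the bone sialoprotein that nucleates mineral, had the highest Control signal of any member, on a scale whose correction for gene length is not stated. It had 1433 and 1174 in Control, 1297 and 1183 at MMS D3, 1908 and 1811 at MMS D7, 1082 and 1230.1 at MMS D14, and 663 and 967 at MMS D28. R2 samples had 1029.6 and 784 and R1 samples 967 and 728, so these 2 groups and MMS D28 overlapped.

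Mepe and Ibsp are neighbours on chromosome 5. In GENCODE vM21 on GRCm38, Ibsp lies at chr5:104299171-104311469 and Mepe at chr5:104325329-104338611, both protein-coding on the plus strand. The promoter of Mepe is shown with the letters TGTGGT, the core bound by Runx factors of bone, in capitals on either strand, for the 250 bases before its start at chr5:104325079-104325328, plus strand, from RefSeq on GRCm38.p6.
Mepe: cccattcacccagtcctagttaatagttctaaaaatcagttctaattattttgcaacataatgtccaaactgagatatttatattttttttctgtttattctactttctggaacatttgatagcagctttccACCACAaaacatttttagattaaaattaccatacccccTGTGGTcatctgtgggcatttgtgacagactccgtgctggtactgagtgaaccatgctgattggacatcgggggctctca

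The 2 matches began 118 and 80 bases before the start of Mepe. The 250 bases taken for Ibsp from RefSeq, chr5:104299037-104299286, held none, and they run past its GENCODE start at 104299171. Over the members, 9.52% of promoters held TGTGGT, against 13.4% in the table and 14.05% of all promoters.

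Enpp1 makes pyrophosphate, an inhibitor of mineral growth, outside the cell. It had 35.4 and 28.3 in Control, 49.7 and 50.4 at MMS D3, 31.9 and 40.2 at MMS D7, 31.6 and 23.4 at MMS D14, and 17.2 and 22.6 at MMS D28. The MMS D3 samples were the highest and the MMS D28 samples the lowest of the series. R2 samples had 25.7 and 24.8 and R1 samples 23.7 and 29.1. Ank, a transporter that supplies pyrophosphate or its precursors to the matrix, had 66.2 and 79.3 at MMS D28, 85.4 and 70.5 in R2 and 75.5 and 82.2 in R1, against 117 and 105 in Control. Phex, an endopeptidase that cleaves such phosphoprotein fragments, had 2.77 and 3.94 at MMS D28, 5.32 and 3.11 in R2 and 3.66 and 3.04 in R1, against 5.47 and 5.86 in Control. For these 2 genes R2 and R1 also lay below Control without overlap.

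**Figure D3:**
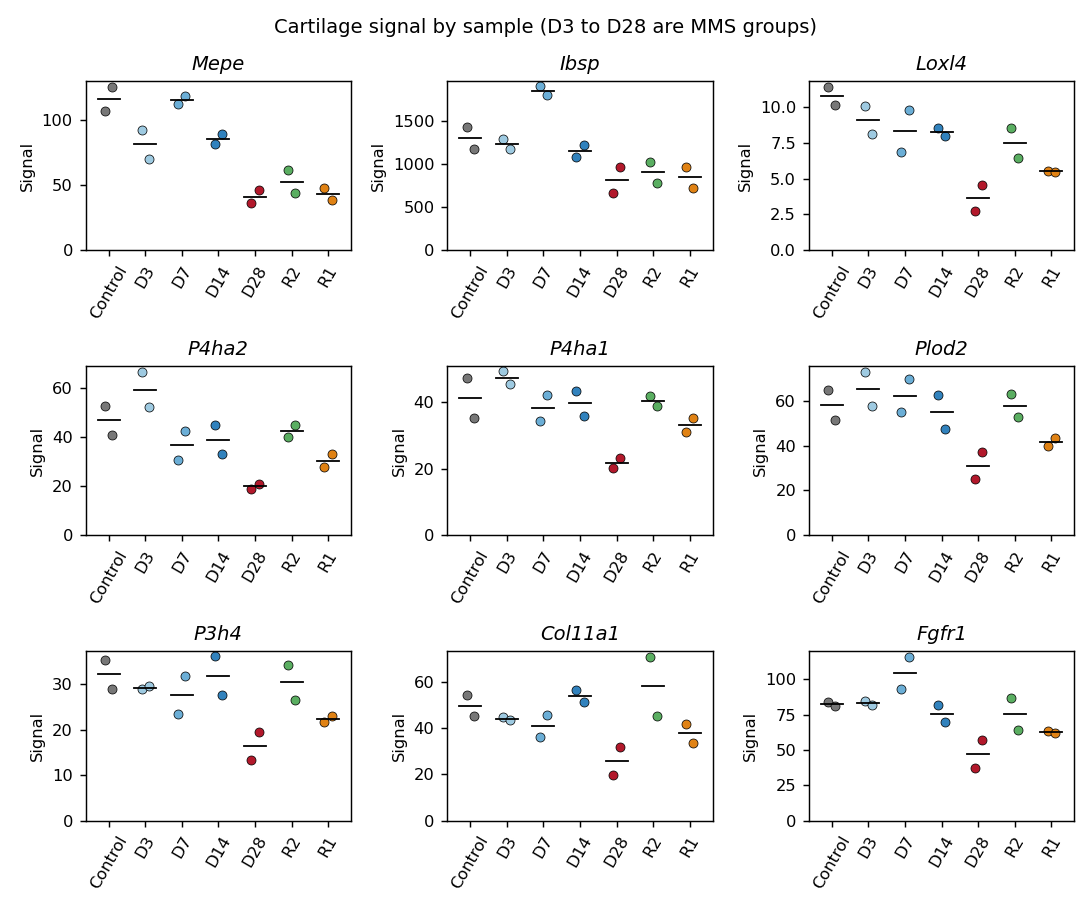
Cartilage signal of 9 members in each sample (points) with the group mean (bar, n = 2), in the order Control, MMS D3 to MMS D28, R2 and R1. Mepe and Ibsp are also below Control in R2 and R1, with Mepe at 61.7 and 43.6 in R2 against 107 and 125 in Control, whereas P4ha1 and Plod2 in R2 overlap Control.

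Signalling genes gave the most members of any list counted here, a size that depends on how that list was drawn up. The fixed TGF-beta and BMP list gave 2 of 18 listed genes, and the fixed Wnt list 1 of 16. A broader list was chosen after the values were seen, of growth factor and other signalling ligands, receptors and their modulators. It had 21 genes in the table, all with L at or below -0.5 at MMS D28, against 48.6% of all genes. Members were 16 of the 21, against 137 of all 1606 genes. The ligands were Bmp2 and Bmp8a, which induce bone and cartilage, Wnt5b, a Wnt of growth-plate chondrocytes, and the guidance cues Ntn1, Sema3d, Efna1 and Efnb2. The receptors were Fgfr1, S1pr1, Aplnr, Ptprf and the chemokine-scavenging receptors Ackr2 and Ackr3, and Ltbp3, Vasn and Cd109 act on TGF-beta ligands or their receptors. Their L at MMS D28 ran from -0.93 for Ackr3 to -0.53 for Efnb2. In R2 it ran from -0.60 for Wnt5b to 0.06 for S1pr1, and in R1 from -0.88 for S1pr1 to -0.12. S1pr1, a receptor for sphingosine 1-phosphate, was therefore at opposite ends in the 2 groups.

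Fgfr1, a receptor for fibroblast growth factors, was among the 8 members with the highest Control signal. Its signal was 83.5 and 80.8 in Control, 84.7 and 81.4 at MMS D3, 93.1 and 116 at MMS D7, 82.0 and 69.4 at MMS D14, and 36.9 and 57.0 at MMS D28. R2 samples had 86.9 and 64.4 and R1 samples 63.0 and 62.2. The MMS D28 samples were lowest, R1 came next, and R2 overlapped Control. Ackr3, which takes up the chemokine Cxcl12, had 11.5 and 20.1 at MMS D28, 24.8 and 30.7 in R2 and 18.9 and 22.9 in R1, against 32.7 and 29.2 in Control.

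Transcription regulators included the homeobox genes Hoxa10, Hoxc10, Hoxd8 and Barx1. These 4 members had L of -0.81 to -0.61 at MMS D28, -0.28 to 0.05 in R2 and -0.44 to -0.26 in R1. Hoxa10 and Hoxc10 pattern the limb skeleton along its length, and Barx1 is expressed in developing joints. Tsc22d1, a leucine zipper protein induced by TGF-beta, was also among those 8. It had 107 and 167 at MMS D28, 220.0 and 184 in R2 and 143 and 148 in R1, against 248 and 226 in Control, with no overlap of any of the 3 groups with Control.

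Genes of caveolae and of the Yap pathway gave 5 members of 6 genes in the table, where 137 of all 1606 genes were members. All 6 had L at or below -0.5 at MMS D28, against 48.6% of all genes. The 5 members were Cav1 and Cavin3, which shape caveolae, the mechanosensitive coactivator Yap1, its binding partner Amotl1, and Stk38l, a kinase that phosphorylates Yap. Their L was -0.73 to -0.52 at MMS D28, -0.33 to -0.07 in R2 and -0.76 to -0.36 in R1. Cav1 had 13.1 and 19.3 at MMS D28, 23.5 and 19.2 in R2 and 12.3 and 15.5 in R1, against 22.9 and 25.6 in Control, so for this gene R1 was as low as MMS D28. Stk38l had the highest L of any member at MMS D3, at 0.71. The homeobox genes and the caveolae list were also chosen after the values were seen.

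The MAGE family, whose proteins assist ubiquitin ligases, gave 3 members of 5 genes in the table, Maged1, Maged2 and Mageh1. All 5 had L at or below -0.5 at MMS D28, against 48.6% of all genes, and 137 of all 1606 genes were members. This list too was drawn up after the values were seen. Maged2 had 15.3 and 17.8 at MMS D28, 26.1 and 24.6 in R2 and 24.1 and 19.3 in R1, against 39.0 and 34.2 in Control. Maged1 had 44.0 and 58.3 at MMS D28, 73.2 and 62.9 in R2 and 55.3 and 54.9 in R1, against 88.7 and 78.2 in Control. None of the 3 groups overlapped Control for either gene. All 3 MAGE members are on the X chromosome, which held 11 of the 137 members (8.03%) and 45 of the 1589 genes of the table that could be placed (2.83%). Others there were Pls3, Capn6, Itm2a, Phex, Tspan6, Armcx2 and Srpx2. This excess over the table was seen after the values were known and carries no test.

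Further members with low L at MMS D28 and a Control level above the member median were Itm2a, Trim47 and Pxdc1. Itm2a, a membrane protein first described in differentiating chondrocytes, had 15.8 and 25.7 at MMS D28, 49.5 and 37.3 in R2 and 36.6 and 32.9 in R1, against 42.1 and 39.9 in Control. Trim47, of the ring-finger ubiquitin ligase family, had 13.3 and 19.3 at MMS D28, 27.2 and 29.3 in R2 and 24.0 and 22.1 in R1, against 32.7 and 30.4 in Control. Pxdc1, which has a phosphoinositide-binding PX domain, had 5.28 and 6.11 at MMS D28, 10.1 and 8.12 in R2 and 7.09 and 7.54 in R1, against 12.1 and 10.7 in Control. Crip2, a LIM domain protein, had 50.9 and 72.4 at MMS D28, 94.5 and 84.7 in R2 and 71.7 and 71.0 in R1, against 94.3 and 92.3 in Control. In all 4 the group mean was lowest at MMS D28, and both R1 samples lay below Control.

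Other fixed lists held few members. The heat shock list had 6 genes in the table, all 6 at or below -0.5 at MMS D28 (48.6% of all genes). Its 2 members were the small heat shock proteins Hspb8 and Cryab. The osteoblast and osteocyte list had 13 of 20 genes in the table and 2 members, Mepe and Phex. Its summed signal was 1296 and 2316 at MMS D28, 7308 and 4734 in R2 and 3549 and 2111 in R1, against 4338 and 4335 in Control. Bglap weighs heavily in this sum, with 4664 and 3017 in R2 against 2566 and 2526 in Control. Gene by gene, the median L of the 13 was -0.95 at MMS D28, -0.23 in R2 and -0.62 in R1. The part of this list in the levels of the mineral genes was not tested. The hypoxia and glycolysis list had 11 genes in the table, of which 8 had L at or above 0.5 at MMS D28, and its 2 members were P4ha1 and P4ha2. The 2 prolyl hydroxylases thus went against most of that list. The TGF-beta and BMP list had 18 genes in the table and 2 members, Bmp2 and Ltbp3.

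The members with a profile most like the median member, by Pearson correlation over the 7 group means, were Rab11fip3 (r = 0.99), Arhgef25, Jam3 and Fkbp9, all at 0.99. Rab11fip3, an effector of Rab11 in endosome traffic, had L of -0.01, -0.08, -0.02 and -0.60 at MMS D3, MMS D7, MMS D14 and MMS D28, and -0.18 in R2 and -0.43 in R1. Arhgef25, an exchange factor that shares its symbol stem with the members Arhgef10 and Arhgef19, had -0.59 at MMS D28, -0.12 in R2 and -0.47 in R1. Jam3, a junctional adhesion molecule, had -0.55, -0.12 and -0.41 in the same 3 groups. Fkbp9, a prolyl isomerase of the endoplasmic reticulum, had -0.73, -0.26 and -0.46.

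At the edges of the rule the choice was fine. Armcx2, Fut10 and Gpt2 just met the limit on L at MMS D28, at -0.503, -0.504 and -0.509, and Zfp839, Tmie and Rgl3 just missed it, at -0.495, -0.494 and -0.489. For the ratio at MMS D3, Mepe, Farp2 and Wnt5b were just inside at 0.346, 0.343 and 0.332, and Mrc2, Snx21 and Zfp36l1 just outside at 0.354, 0.355 and 0.369. At MMS D7, Cryab, Hoxd8 and Arhgef19 had 0.344, 0.338 and 0.334, and Pkdcc, Mustn1 and Vwa1 had 0.355, 0.356 and 0.362. At MMS D14, Mapre3, Ackr2 and Stk38l had 0.349, 0.343 and 0.340, and Mab21l2, Slc41a1 and Ccdc157 had 0.357, 0.362 and 0.366.

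R2 against R1 is the cartilage comparison in which the rule used neither group. Members leaned towards higher values in R2: 128 of the 137 had a higher R2 estimate (53.8% of all genes had a higher R2 mean), the median log2 change was 0.25, and both R2 samples lay above both R1 samples for 98 members, against 39.2% of all genes. The median over all genes was 0.07 and over the other 643 lowered genes 0.31. Of those 643, 457 (71.1%) had both R2 samples above both R1 samples. Few members passed the test. With limma and Benjamini-Hochberg adjustment over all 1606 genes, 6 of the 137 (4.38%) were called at an adjusted p under 0.05, all higher in R2, against 35.6% of all genes called and 13.2% called higher. The other lowered genes gave 185 of 643, of which 184 were higher. At an unadjusted p under 0.05 there were 25 members. The difference between these shares was not tested. The fit took its spread from all 14 cartilage samples, 10 of which the rule used, so the calls are not wholly free of the rule. Both R2 samples lay below both R1 samples for 1 member, against 39.5% of all genes and 14 of the other 643 lowered genes.

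The 6 genes were S1pr1, Mapk11, Cryab, Cav1, Farp2 and B9d1. S1pr1 had 18.1 and 14.1 in R2, against 8.12 and 7.68 in R1, a log2 change of 0.93 ± 0.19 (SE; limma adjusted p = 0.00481). Mapk11, the beta form of p38 kinase, had 3.64 and 2.63 in R2, against 1.48 and 1.47 in R1 (log2 change 0.73 ± 0.15, limma adjusted p = 0.00473). Cryab, the small heat shock protein alpha-B crystallin, had 38.2 and 34.2 in R2, against 24.6 and 20.1 in R1 (0.68 ± 0.20, limma adjusted p = 0.0253). In all 3 genes the R1 samples were close to or below the MMS D28 samples, which had 7.12 and 11.4 for S1pr1, 1.58 and 1.57 for Mapk11, and 22.9 and 25.1 for Cryab. Cav1 averaged 21.3 ± 3.08 in R2 and 13.9 ± 2.31 in R1 (SD, n = 2 each, limma adjusted p = 0.0474), a call that was also lost after centring and with the replicate block. Farp2, an exchange factor for Rac, and B9d1, a protein of the ciliary transition zone, had log2 changes of 0.51 and 0.42. With R2 replicate 1 left out no member was called, with either R1 replicate left out 2 were, and with R2 replicate 2 left out 11 were.

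**Figure D4:**
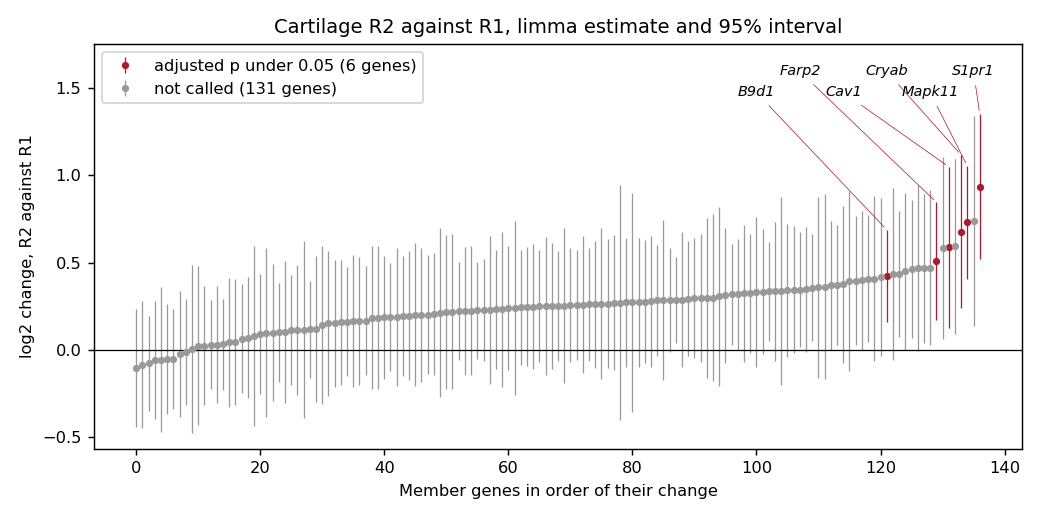
Each point is the log2 change of 1 member in cartilage R2 against R1, with its 95% interval from limma, in order of size. The 6 called members (red) are all higher in R2, with S1pr1 at 0.93, and most of the 131 grey intervals reach 0.

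Against Control, R1 and R2 differed in how many members passed. In R1, 76 of the 137 members (55.5%) were called and all 76 were lower, where 69.2% of all genes were called and 33.3% were called lower. Of the other 643 lowered genes, 423 (65.8%) were called lower. Both R1 samples lay below both Control samples for 130 members, against 51.0% of all genes. The other lowered genes were close to the members here, with 589 of 643 (91.6%). Among members, the largest falls in R1 were those of Mepe, Cryab, S1pr1, Loxl4, Mdfi and Cav1. Mepe averaged 43.2 ± 6.18 in R1 and 116 ± 13.02 in Control (SD, n = 2 each), a log2 change of -1.41 ± 0.20 (SE; limma adjusted p = 7.01e-04). Mdfi, an inhibitor of myogenic transcription factors, had 20.0 and 18.4 in R1, against 37.9 and 32.2 in Control (log2 change -0.83 ± 0.17, limma adjusted p = 0.00304). The same estimate was -0.95 for Cryab, -0.88 for S1pr1, -0.85 for Loxl4 and -0.77 for Cav1. Centring each sample on its median left 36 calls in R1. Leaving out 1 library left 16 without Control replicate 1, 44 without Control replicate 2, 27 without R1 replicate 1 and 23 without R1 replicate 2.

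In R2, 2 of the 137 members (1.46%) were called against Control, Mepe and Coq8a, both lower, where 0.747% of all genes were called, 0.685% lower and 0.0623% higher. Coq8a, a kinase-like protein needed to make coenzyme Q, had 5.97 and 4.27 in R2, against 9.91 and 10.1 in Control (log2 change -0.86 ± 0.16, limma adjusted p = 0.0326). Mepe had a log2 change of -1.14 ± 0.20 in R2 with the same adjusted p. At an unadjusted p under 0.05 there were 22 members. Both R2 samples lay below both Control samples for 62 members, against 26.7% of all genes and 46.8% of the other 643 lowered genes. Of those 643, 9 (1.40%) were called lower in R2. No member was called without R2 replicate 2 or without Control replicate 2, and 1 was called without Control replicate 1. In both R groups the Control samples are those the rule used.

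For the comparisons the rule used, the counts only restate it. At MMS D28 against Control, 137 of the 137 members were called lower, where 97.3% of all genes were called, 54.6% lower and 42.7% higher. At the earlier groups 8 members were called at MMS D3 (23.8% of all genes, 12.9% higher), 1 at MMS D7 (22.4%, 6.79% higher) and 3 at MMS D14 (53.5%, 25.5% higher), all of them higher than Control.

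Only 21 of the 137 members were also in the synovium table, which holds 1178 genes. In synovium 5 libraries stood apart from the others, namely replicate 3 of the Control, R2 and 3 MMS groups. The predicted gene Gm2023 was at 1.71 to 3.36 FPKM in these 5 and at 12.6 to 56.2 FPKM in the other 13 samples. The table is itself selected: 1155 of its genes (98.0%) differed at least 1.5-fold between the means of MMS D14 and Control. The 21 genes are therefore not a sample of the members.

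In synovium most of these 21 genes were higher than Control. Their median log2 change was 0.06 at MMS D3, 0.73 at MMS D7 and 1.27 at MMS D14, and 0.43 in R2 and 0.48 in R1. Over all genes of the synovium table the medians were -0.34, -0.65 and -1.08, and -0.38 in both R2 and R1. With limma and adjustment over all 1178 genes, 8 of the 21 were called at MMS D3 (6 higher and 2 lower), against 55.9% of all genes and 16.3% higher. At MMS D7 17 were called (13 higher), against 85.7% of all genes and 24.1% higher, and at MMS D14 all 21 were (17 higher), against 96.9% and 27.7% higher. R2 gave 13 calls (10 higher), against 60.8% and 15.7% higher, and R1 gave 14 (11 higher), against 61.1% and 15.9% higher. Without the 5 libraries the counts were 11, 17 and 21 at MMS D3, MMS D7 and MMS D14, 14 in R2 and 14 in R1. In R2, 6 were called without R2 replicate 1, 6 without R2 replicate 2 and 8 without Control replicate 3.

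Ibsp showed the largest rise. It had 1.53, 1.24 and 1.12 FPKM in Control, 16.4, 19.3 and 14.1 FPKM at MMS D3, 25.4, 9.64 and 51.0 FPKM at MMS D7, and 23.9, 28.6 and 40.8 FPKM at MMS D14. R2 samples had 6.39, 8.88 and 7.04 FPKM and R1 samples 5.90, 1.84 and 5.18 FPKM. All samples of each group lay above all Control samples, and the log2 changes were 2.93 ± 0.42, 3.41 ± 0.42 and 3.77 ± 0.42 at the 3 MMS groups, 1.87 ± 0.42 in R2 and 1.11 ± 0.42 in R1 (SE, all called by limma). The call in R1 was lost without R1 replicate 1, R1 replicate 3, Control replicate 2 or Control replicate 3, with log2 changes of 0.87 to 1.51 over the alternatives. Enpp1 had 5.34, 6.42 and 6.62 FPKM in Control, and at MMS D14 42.1, 44.7 and 38.6 FPKM. It was called higher in all 5 comparisons, with log2 changes of 0.94, 1.89 and 2.59 over the MMS groups, 1.22 in R2 and 1.26 in R1.

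The collagen enzymes listed in synovium also rose there. Plod2 averaged 75.7 ± 13.9 FPKM at MMS D14 and 11.8 ± 0.97 FPKM in Control (SD, n = 3 each, log2 change 2.57, limma adjusted p = 3.07e-08), and it was called higher in all 5 comparisons. P4ha2 averaged 57.2 ± 11.7 FPKM at MMS D14 and 17.6 ± 2.92 FPKM in Control (log2 change 1.64, limma adjusted p = 4.73e-07). It was not called at MMS D3, where its log2 change was -0.00. P3h4 and Kdelr3 were called higher at MMS D14 with log2 changes of 1.23 and 1.67. Col6a2 averaged 1308 ± 329 FPKM at MMS D14 and 268 ± 50.9 FPKM in Control (log2 change 2.27). Sertad4, a transcriptional cofactor, and Srpx2, a secreted sushi-repeat protein, had log2 changes of 2.78 and 2.28 at MMS D14 and were also called higher at MMS D3 and MMS D7. In R2 Srpx2 was at 0.43 and missed the call (limma adjusted p = 0.0505), and with the replicate number as a block it passed (limma adjusted p = 0.0446).

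The 4 genes that fell in synovium were Gpt2, a mitochondrial alanine aminotransferase, the hyaluronidase Hyal1, the Ras-like protein Rasl12 and the acylphosphatase Acyp2. At MMS D14 their log2 changes were -1.70, -1.42, -1.25 and -1.12. The MMS D14 call of Acyp2 was lost after centring (limma adjusted p = 0.0518), and its MMS D7 call held in 8 of 13 alternatives. Gpt2, Hyal1 and Rasl12 were also called lower in R2 and in R1. In R2 the call of Rasl12 was lost in 6 of 13 alternatives, with log2 changes of -0.51 to -0.15 and a limma adjusted p of up to 0.279, and that of Hyal1 in 5 of 13, with log2 changes of -0.75 to -0.30. Both were lost after centring, with only the 2 groups compared, and without R2 replicate 1 or R2 replicate 2. Rasl12 was also lost without Control replicate 1 or Control replicate 2, and Hyal1 without Control replicate 3. Acyp2 was at -0.52 at MMS D3 (limma adjusted p = 0.118) and passed with the replicate number as a block (limma adjusted p = 0.0120). In R2 it was at -0.45 (limma adjusted p = 0.173) and again passed with the block (limma adjusted p = 0.0241).

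**Figure D5:**
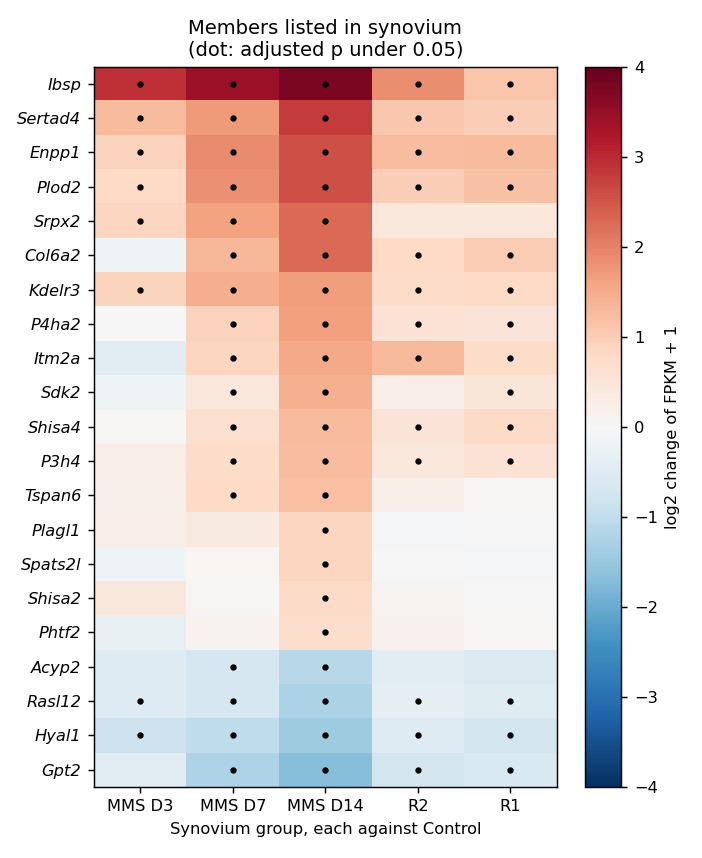
Log2 change of FPKM plus 1 against Control (colour) for the 21 members listed in synovium, in rows ordered by MMS D14, with a dot where limma called the change. At MMS D14, 17 genes are higher and 4 lower, from 3.77 for Ibsp to -1.70 for Gpt2.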

How the data were processed

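Per the labels' protocols, RNA was taken with Trizol and libraries followed BGI protocols. HISAT2 and mm10 are named in the submitters' processing notes. The authors deposited a cartilage table of a normalised signal, whose unit is not given in the sources used here, for 1606 genes in 14 samples, and, for synovium, FPKM (so named in the file headers) of 1178 genes in 18 samples. Both hold selected genes, neither gives depth, and no interval for counting error could be had. Column sums were 108504 to 149830 in cartilage. At most 0.560% of values were identical between any pair of cartilage samples.

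Members were found from group means by the rule in the opening. Members, lists and tests were chosen with earlier results of these data known. All groups of a tissue entered 1 fit of log2(value + 1) in limma 3.58.1 (R 4.3.3) with a variance trend. Benjamini-Hochberg adjustment ran over every gene of the table, and an adjusted p under 0.05 was called. Requiring a value of 1 in the number of samples of the smallest group took out no gene. A fold change on this scale understates changes of low genes. The fits were tested on simulated data.

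Same-numbered samples correlated in every pair in synovium MMS D3 (0.13 to 0.40), MMS D14 (0.11 to 0.28) and R2 (0.36 to 0.66) with Control, from deviations around group means, so a block on the number was read there. In none of these 3 did every sample correlate best with its own number. Synovium MMS D7 and R1 with Control did not pass, with lowest correlations of 0.03 and 0.05. The check asked for at least 3 pairs, so with 2 samples a group no cartilage comparison could pass it. The cartilage correlations ranged from -0.24 to 0.21 and leave the pairing of cartilage samples undecided. Alternatives were a pseudocount of 0.1, centring on sample medians, no filter, no trend, the block, only the 2 groups compared, and each library left out. Leaving out 5 synovium libraries was chosen after seeing the data.

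Genes were named by rule: the 12 lowest members at MMS D28 above the median Control level, the 8 with the highest Control level, called members with the largest changes or smallest adjusted p, those nearest each limit, those most like the median profile, and members of lists. Others were named after their values were seen. Some items are not reported here. Positions came from GENCODE vM21 and promoters from RefSeq. Python 3.11.15, pandas 2.3.3, numpy 2.4.6 and matplotlib 3.10.9 were used.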

Additional observations from a re-analysis of the deposited data

Results flagged for a closer look

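In 12 cases a member lay below Control in every cartilage sample of a group and above Control in every synovium sample of the same group, 10 of 21 members in R1 and 2 of 21 in R2. Over all 240 genes in both tables, 42 (17.5%) did so in R1 and 12 in R2. Of the other lowered genes in both tables, 117 in number, 27 did so in R1 and 9 in R2. Members were chosen to be low in cartilage and the tables were selected on different contrasts. The difference between the tissues was not tested, the tables were normalised separately, and the cartilage Control samples are those the rule used. In R1 the log2 changes in cartilage and in synovium were -0.48 and 1.01 for Col6a2, -0.63 and 1.11 for Ibsp, -0.23 and 0.75 for Itm2a, -0.27 and 0.81 for Kdelr3, and -0.50 and 0.59 for P3h4. They were -0.60 and 0.52 for P4ha2, -0.47 and 1.16 for Plod2, -0.41 and 0.48 for Sdk2, a cell adhesion protein, -0.45 and 0.78 for Shisa4, and -0.30 and 0.43 for Srpx2. In R2 they were -0.32 and 1.22 for Enpp1 and -0.53 and 1.87 for Ibsp. Of the 12 cartilage changes, limma called those of Ibsp, P3h4, P4ha2, Sdk2 and Shisa4 in R1.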

How the results depend on the processing

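The number of members was 137, and 61 after centring each sample on its median (55 of them among the 137), 86 with a ratio limit of 0.25, 166 with a pseudocount of 0.1, and 51 to 195 when 1 library was left out. The median of all genes stood at -0.17 relative to Control at MMS D28, -0.12 in R1 and -0.11 at MMS D7 on the log2 scale, and centring removes these offsets. After it all 137 members were below Control at MMS D28, 133 in R1 and 108 in R2, with medians of -0.47, -0.31 and -0.12. At MMS D28 this had to be so, since the rule's limit of -0.5 lies below the offset of -0.17 removed there. Calls in R2 against R1 numbered 6, and 15 with only the 2 groups compared and 0 to 11 with 1 library left out. Calls in R1 against Control numbered 76, and 36 after centring and 16 to 44 with 1 library left out. Calls in R2 against Control numbered 2, and 0 with only the 2 groups compared and 0 to 2 with 1 library left out. In synovium, leaving out 1 library gave 8 to 10 calls at MMS D3, 15 to 17 at MMS D7, 20 to 21 at MMS D14, 6 to 13 in R2 and 10 to 14 in R1. Where an arm was left with 1 sample, that sample was assumed to vary like the other groups. The cause of these differences was not tested.

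With the replicate number as a block, calls numbered 5 in R2 against R1, 66 in R1 against Control and 0 in R2 against Control in cartilage, where the numbers are not shown to pair samples. In synovium the block gave 9 at MMS D3, 17 at MMS D7, 21 at MMS D14, 15 in R2 and 16 in R1. In the 3 comparisons that passed the pairing check, the block changed the calls of Acyp2 and Srpx2 as given above and no other named call. For genes named in a test, 717 values under the alternatives kept their direction and side of the threshold, 53 lost the call, 20 gained it and none reversed. Depth is unknown, and 2 samples a group limit the precision in cartilage.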
